A study of Arabidopsis thaliana with 24 samples.

Results

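The 39 core and linker histone genes of Arabidopsis thaliana were followed through 12 leaf RNA libraries. The genes were chosen by locus from lists of known H1, H2A, H2B, H3 and H4 genes, without the centromeric H3 gene, and are 39 of the 27416 genes in the count tables. There were 25 genes of the replication type (5 H3.1, 8 H4, 4 H2A and 8 H2B genes), 11 genes of replacement variants (3 H3.3, 3 H2A.Z, 2 H2A.X and 3 H2A.W genes) and 3 linker H1 genes. All 39 passed the filter on low counts, as did 19201 of all genes. The libraries fell into 6 groups of 2. DH6, DH9 and DH14 are doubled-haploid lines, in which a haploid genome has been doubled. The name sDH is not spelled out in the labels, 2n stands for diploid plants and 1n for haploid plants. For the haploids the labels' descriptions write 1nCol, and the columns taken as 2n are named WT in a table headed Col against 1n. The labels name no other strain, no treatment and no allele for any group, nor how many doubling events or plants stand behind a line. RNA came from leaves 6, 7 and 8 of plants labelled as seedlings, 2 weeks of age. After stratification for 2 days at 4 °C they were raised on soil with 16 h of light at 22 °C. Libraries were made from poly(A)-selected RNA.

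In the nucleosome, DNA is wrapped around an octamer of H2A, H2B, H3 and H4, and H1 binds the DNA between nucleosomes. Replication-type histones are made mainly in S phase and are laid down behind the replication fork, H3.1 by the chaperone CAF-1. Replacement variants are made and exchanged outside S phase as well. H3.3 is placed on transcribed genes with the help of HIRA, H2A.Z is put into gene starts and repressed genes by the SWR1 complex, H2A.X is phosphorylated at DNA breaks and H2A.W marks plant heterochromatin. In plants the mRNAs of replication-type histones carry poly(A) tails, so that poly(A) selection retains them.

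Libraries held 16484799 to 22146896 gene counts, and levels are CPM (counts relative to library size) scaled by the trimmed mean of M values. A gene is said to have risen or fallen where the adjusted p of edgeR's quasi-likelihood test, over all 19201 genes, lay under 0.05. Log2 changes are given with their standard error. The labels speak of biological replicates without saying that plants or harvests were separate, so p-values here measure the spread between these libraries alone, which may be technical. The libraries of every pair differed by more than read sampling; chi-square divided by its degrees of freedom was 3.98 in DH9, the lowest, and 24.1 in 1n, the highest. Libraries are named by group and by the numeral in the tables (DH6 II, 1n 2). In bulk RNA, fewer cells of a type and less RNA per cell cannot be told apart. The leaf genes RBCS1A, RCA and LHCB2.1 together reached 30229 to 47952 CPM, markers of root hair and seed were at 0 to 0.373 CPM in sum, and the 7 shoot meristem markers, STM, WUS and CLV3 among them, had at most 4 counts each in any library.

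Histone mRNA took a larger share of the counts in every other group than in 1n. The 39 genes held 0.315 and 0.357% of the counts in DH6, 0.262 and 0.258% in DH9, 0.238 and 0.230% in DH14, 0.335 and 0.315% in sDH, 0.318 and 0.279% in 2n, and 0.189 and 0.153% in 1n. No library of another group lay as low as a 1n library. In the mean of the other 5 groups against 1n, 36 of the 39 genes rose, where 22.2% of all tested genes did (46.9% changed in either direction). Their median log2 change was 0.81, against -0.02 over all tested genes. None fell by edgeR, and 0 genes were lower at an unadjusted p under 0.05 or by DESeq2. The 3 genes that did not pass were HTA12, RAT5 and HIS1-3, and the calls of AT1G06760 and AT2G30620 were lost without 1n 2.

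**Figure D1:**
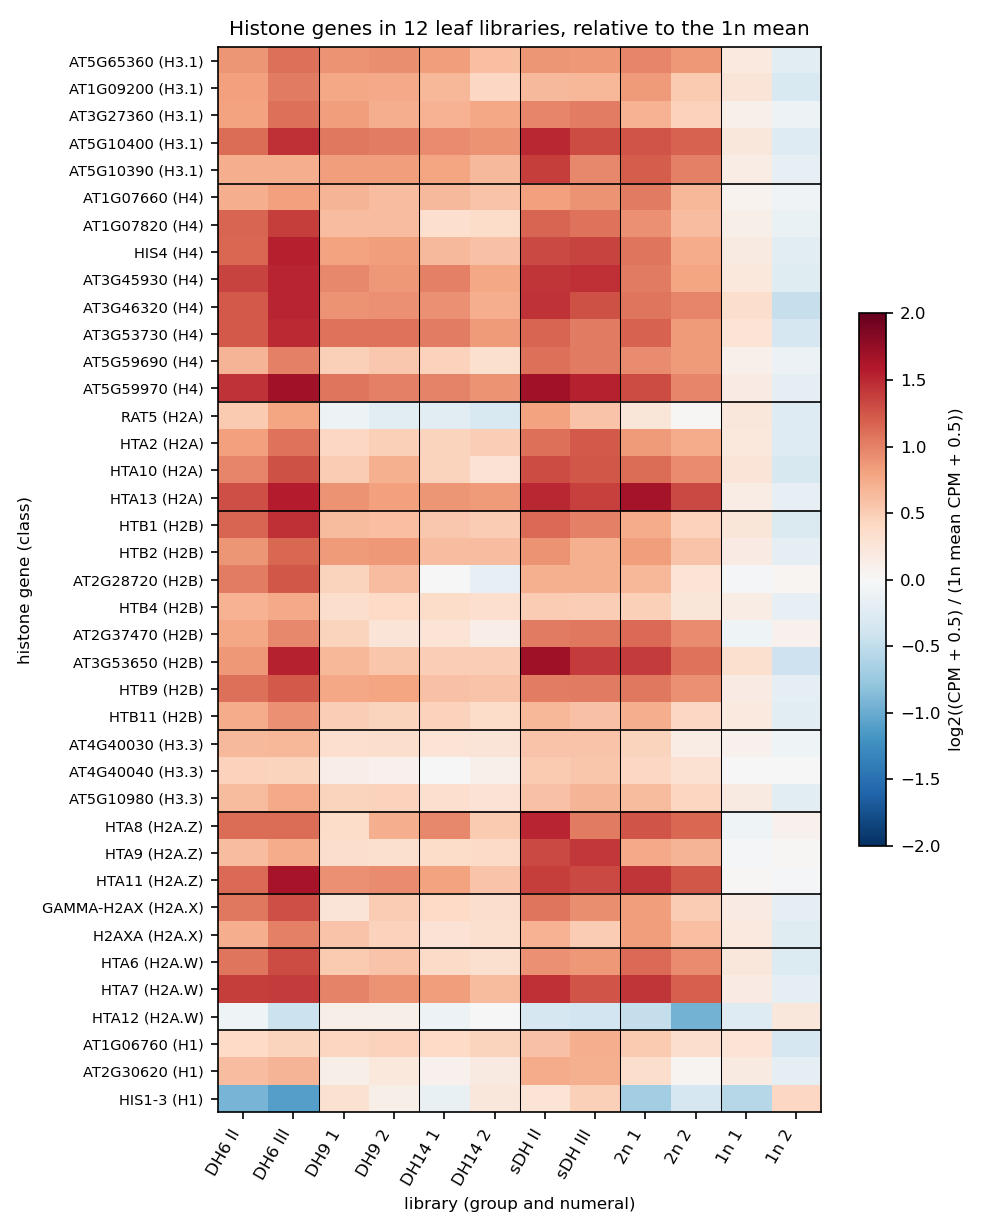
Colour shows the log2 ratio of each gene's level (CPM + 0.5) to its mean level in 1n, for 39 histone genes (rows, by class) in 12 libraries (columns). Most rows are red in DH6, sDH and 2n and paler in DH9 and DH14. HTA12 is below its 1n mean in DH6, sDH and 2n, and slightly below it in DH14 (4.99 and 5.38 CPM, against a 1n mean of 5.40 CPM). HIS1-3 is below its 1n mean in DH6 and 2n and above it in DH9 and sDH.

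The rise was of unequal size across groups. Against 1n, 37 genes rose in DH6 (22.6% of all tested genes, with 47.1% changed in either direction), 31 in DH9 (15.5%, with 30.3% changed), 23 in DH14 (12.2%), 37 in sDH (24.1%, with 48.5% changed) and 35 in 2n (21%). The median log2 change of the 39 genes was 1.00 in DH6, 0.62 in DH9, 0.48 in DH14, 1.04 in sDH and 0.81 in 2n, while the median over all tested genes lay between -0.01 and 0.01. These 5 comparisons share the 1n libraries. DH6 held the highest group mean for 19 genes and sDH for 17, and 1n held the lowest for 35. How often each group was highest or lowest over all tested genes was not counted. The counts in DH9 and DH14 were smaller when either library of the line was left out, as were those over all tested genes. With the libraries of 1n and the line alone, 18 histone genes passed in DH9 and 10 in DH14. Of all genes, 3028 of 18455 tested passed there in DH9 and 1628 of 18532 in DH14.

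In 1n, 2n and DH6, most histone genes differed between the 2 libraries in one direction. In 1n, 32 of 39 genes were higher in 1n 1 than in 1n 2, with a median log2 difference of 0.36. In 2n, 38 were higher in 2n 1 than in 2n 2 (median 0.24), and in DH6, 35 were higher in DH6 III than in DH6 II (median 0.22). Most genes also differed in one direction in DH14 (28 of 39 higher in DH14 1) and sDH (25 of 39 higher in sDH II), but by less (medians 0.06 and 0.04). No such shift stood out in DH9 (20 of 39 higher in DH9 1). The genes moved together, most of all in 1n, 2n and DH6, so a count of them is not a count of separate observations.

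H3.1 genes encode the replication-coupled H3. All 5 rose in every group against 1n, with a median log2 change of 0.89 in the mean of the other groups. Single calls were lost for AT1G09200 in DH14 without DH14 1, DH14 2 or 1n 2 and in 2n without 2n 1, and for AT5G10390 in DH14 without DH14 1. AT5G10400 had 47.4 and 60.6 CPM in DH6, 45.5 and 44.7 CPM in DH9, 42.4 and 40.9 CPM in DH14, 62.7 and 54.0 CPM in sDH, 52.4 and 49.8 CPM in 2n, and 25.3 and 18.0 CPM in 1n. Both 1n values were the lowest of the 12, and the mean of the other groups was higher (log2 change 1.20 ± 0.13, adjusted p = 4.08e-05). Its neighbour on the chromosome, AT5G10390, encodes H3.1 too and rose by a log2 change of 0.95 ± 0.13, adjusted p = 0.000171. AT3G27360 had 40.0 and 49.2 CPM in DH6, 40.8 and 37.9 CPM in DH9, 36.9 and 39.3 CPM in DH14, 45.0 and 46.8 CPM in sDH, 37.2 and 31.3 CPM in 2n, and 24.3 and 21.0 CPM in 1n. Again no library of another group reached down to 1n (log2 change 0.83 ± 0.10, adjusted p = 9.31e-05). AT5G65360, which held the most CPM of the H3.1 genes without regard to transcript length, had 107 and 125 CPM in DH6, 108 and 110.1 CPM in DH9, 104 and 87.7 CPM in DH14, 106 and 106 CPM in sDH, 114 and 106 CPM in 2n, and 66.2 and 49.0 CPM in 1n. Its values in the other groups were all above 1n (log2 change 0.89 ± 0.11, adjusted p = 9.50e-05). AT1G09200 ranged from 78.5 to 120 CPM outside 1n, against 70.0 and 47.2 CPM in 1n.

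H4 genes, whose product pairs with H3 before it enters the nucleosome, had the highest class median beside H2A.Z. All 8 rose in the mean of the other groups (median log2 change 1.07), and all but AT1G07820 rose in DH14. AT5G59970 had 55.0 and 64.5 CPM in DH6, 42.0 and 40.2 CPM in DH9, 39.8 and 37.2 CPM in DH14, 64.6 and 58.7 CPM in sDH, 49.3 and 39.6 CPM in 2n, and 22.1 and 17.4 CPM in 1n. That was the largest log2 change among the 39 genes in the mean of the other groups (1.28 ± 0.12, adjusted p = 1.35e-05). AT1G07820 had 80.8 and 94.0 CPM in DH6, 54.9 and 55.0 CPM in DH9, 45.2 and 45.9 CPM in DH14, 80.1 and 75.8 CPM in sDH, 67.7 and 54.7 CPM in 2n, and 38.7 and 32.5 CPM in 1n. It was high in DH6 and sDH, and DH14 lay above 1n by a log2 change that did not pass (0.36 ± 0.13, adjusted p = 0.0612). AT5G59690 had 105 and 132 CPM in DH6, 91.3 and 94.6 CPM in DH9, 90.2 and 81.8 CPM in DH14, 141 and 134 CPM in sDH, 126 and 119 CPM in 2n, and 70.1 and 60.3 CPM in 1n. It was highest in sDH and rose in each group (mean of the other groups 0.75 ± 0.10, adjusted p = 9.60e-05), though the call in DH14 was lost without DH14 1, DH14 2 or 1n 2 and that in DH9 without DH9 2. The H4 genes encode proteins that are nearly or fully identical, and how the authors assigned reads shared by such copies is not given in the sources used here, so the split among copies is uncertain, also for H3.1 and the other families of close copies.

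Replication-type H2A and H2B form the dimers on the faces of the nucleosome. Of the 4 H2A genes, 3 rose in the mean of the other groups, and all 8 H2B genes did (median log2 change 0.84 and 0.76). HTA13 had 36.8 and 45.2 CPM in DH6, 28.1 and 26.7 CPM in DH9, 27.9 and 27.3 CPM in DH14, 42.9 and 39.1 CPM in sDH, 48.0 and 37.9 CPM in 2n, and 16.4 and 13.3 CPM in 1n. It was the only one of the 3 with its highest group mean in 2n (mean of the other groups 1.25 ± 0.12, adjusted p = 1.97e-05). HTA10, with the most CPM of the class, again not per length, had 85.2 and 105 CPM in DH6, 61.7 and 71.1 CPM in DH9, 59.0 and 52.5 CPM in DH14, 107 and 102 CPM in sDH, 94.4 and 82.9 CPM in 2n, and 51.7 and 34.4 CPM in 1n. HTA2 had 45.7 and 54.8 CPM in DH6, 34.4 and 36.0 CPM in DH9, 35.3 and 36.4 CPM in DH14, 55.5 and 60.8 CPM in sDH, 46.8 and 43.5 CPM in 2n, and 29.9 and 21.4 CPM in 1n. In DH9 and DH14 both genes lay between 1n and the other groups, and HTA10 did not pass in DH14 (log2 change 0.37 ± 0.17, adjusted p = 0.143). The call of HTA2 was lost without 1n 2 or either library of the line, in DH9 and in DH14, and that of HTA10 in DH9 without DH9 2 or 1n 2. Among H2B genes, AT2G37470 had 44.9 and 51.1 CPM in DH6, 35.8 and 31.3 CPM in DH9, 31.5 and 28.6 CPM in DH14, 53.9 and 54.8 CPM in sDH, 57.5 and 50.9 CPM in 2n, and 24.4 and 27.7 CPM in 1n. DH14 lay just above 1n and did not pass (log2 change 0.20 ± 0.12, adjusted p = 0.23), while sDH and 2n had the highest means. HTB9 had 146 and 159 CPM in DH6, 115 and 117 CPM in DH9, 102 and 100.4 CPM in DH14, 137 and 139.6 CPM in sDH, 141 and 128 CPM in 2n, and 76.0 and 58.9 CPM in 1n. It rose in every group (mean of the other groups 0.92 ± 0.09, adjusted p = 2.17e-05). HTB4, with the most CPM of the H2B genes, not per length, rose too (0.47 ± 0.09, adjusted p = 0.00116), with 143 to 204 CPM outside 1n, against 134 and 108 CPM in 1n.

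RAT5, an H2A gene known from Agrobacterium transformation of roots, did not follow its class; it was picked after its values were seen. It had 18.5 and 22.3 CPM in DH6, 11.7 and 10.8 CPM in DH9, 10.7 and 10.1 CPM in DH14, 22.5 and 19.0 CPM in sDH, 15.1 and 13.0 CPM in 2n, and 14.8 and 10.5 CPM in 1n. Its DH6 and sDH libraries were the 4 highest, and the ranges of DH9, DH14 and 2n overlapped that of 1n. It rose in DH6 (0.69 ± 0.17, adjusted p = 0.00655) and in sDH (0.71 ± 0.17, adjusted p = 0.00514) against 1n, and did not pass in DH9 (-0.17 ± 0.17, adjusted p = 0.492), DH14 (-0.28 ± 0.18, adjusted p = 0.271) or 2n (0.15 ± 0.17, adjusted p = 0.523). Without DH6 III the call in DH6 was lost (adjusted p = 0.0612).

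Replacement H3.3 had the lowest median change of the core histone classes. All 3 genes rose in the mean of the other groups, with a median log2 change of 0.43, but none passed in DH14 against 1n, where DESeq2 called 0 as well and 2 had an unadjusted p under 0.05. AT4G40040 had 295 and 293 CPM in DH6, 236 and 228 CPM in DH9, 215 and 229.8 CPM in DH14, 308 and 314 CPM in sDH, 286 and 265 CPM in 2n, and 212 and 216 CPM in 1n. DH14 overlapped 1n and DH9 lay above it by little, while DH6, sDH and 2n were higher (mean of the other groups 0.30 ± 0.06, adjusted p = 0.00118). Its chromosomal neighbour AT4G40030, the other H3.3 gene of this pair, had 216 and 218 CPM in DH6, 174 and 176 CPM in DH9, 165 and 164 CPM in DH14, 205 and 204 CPM in sDH, 187 and 153 CPM in 2n, and 146 and 129 CPM in 1n. Its DH6 and sDH values were the highest, and its log2 change in the mean of the other groups was 0.43 ± 0.08, adjusted p = 0.00099. AT5G10980 ranged from 112 to 156 CPM outside 1n, against 105 and 79.2 CPM in 1n.

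**Figure D2:**
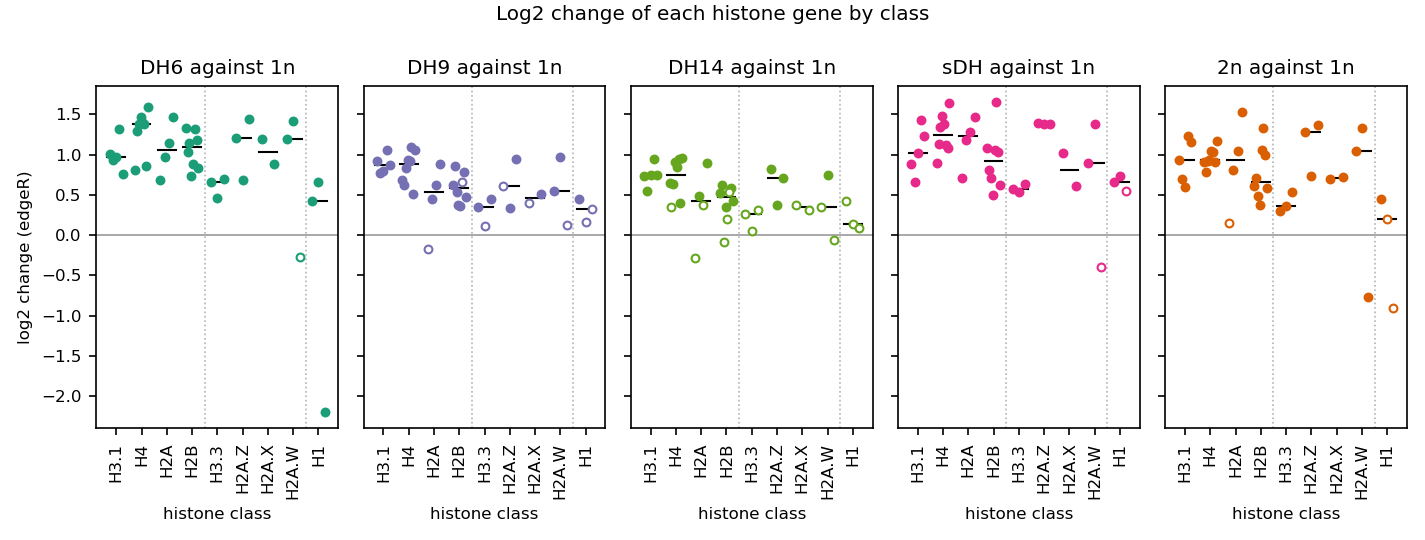
Log2 change of each histone gene against 1n in DH6, DH9, DH14, sDH and 2n, by class; filled points passed at an adjusted p under 0.05, open points did not, and bars are class medians. Dotted lines part replication-type, replacement and linker classes; H3.3 medians lie between 0.26 and 0.66, H3.1 medians between 0.75 and 1.02.

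Replication-type genes passed the test against 1n more often than replacement genes in DH9 and DH14, and in the other groups nearly all genes of both kinds did; the difference between the kinds itself was not tested. In DH6, 25 of 25 replication-type and 10 of 11 replacement genes rose, with median log2 changes of 1.14 and 0.88. In DH9, 23 of 25 and 7 of 11 rose, with medians of 0.77 and 0.46, and in DH14, 19 of 25 and 4 of 11, with medians of 0.58 and 0.35. In sDH, 25 of 25 and 10 of 11 rose, with medians of 1.08 and 0.89, and in 2n, 24 of 25 and 10 of 11, with medians of 0.92 and 0.73. The background shares are those given above for all genes.

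The balance of H3.1 to H3.3 was lower in 1n. Summed over their genes, H3.1 averaged 343 ± 40.0 CPM in DH6, 312 ± 2.04 in DH9, 277 ± 21.7 in DH14, 326 ± 9.19 in sDH, 313 ± 29.6 in 2n and 170 ± 37.4 in 1n (SD, n = 2 each). H3.3 averaged 660 ± 9.55 CPM in DH6, 533 ± 2.48 in DH9, 501 ± 6.48 in DH14, 658 ± 9.78 in sDH, 579 ± 52.1 in 2n and 443 ± 27.2 in 1n (SD, n = 2 each). In multiples of 1n, the H3.1 sums came to 1.63 in DH14 up to 2.01 in DH6, and the H3.3 sums to 1.13 in DH14 up to 1.49 in DH6. The ratio of the H3.1 sum to the H3.3 sum was 0.482 and 0.557 in DH6, 0.586 and 0.584 in DH9, 0.590 and 0.518 in DH14, 0.510 and 0.480 in sDH, 0.542 and 0.538 in 2n, and 0.425 and 0.339 in 1n. The 1n libraries were the lowest of the 12 and differed from each other by more than those of any other group. The size of the ratio itself depends on transcript lengths, so that only its difference between libraries is read. Over all classes, replication-type genes averaged 1932 CPM in DH6, 1489 in DH9, 1341 in DH14, 1821 in sDH, 1619 in 2n and 922 in 1n, and replacement genes 1097 CPM in DH6, 843 in DH9, 783 in DH14, 1092 in sDH, 979 in 2n and 654 in 1n. No test was made of these sums, since the genes were chosen with results known.

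**Figure D3:**
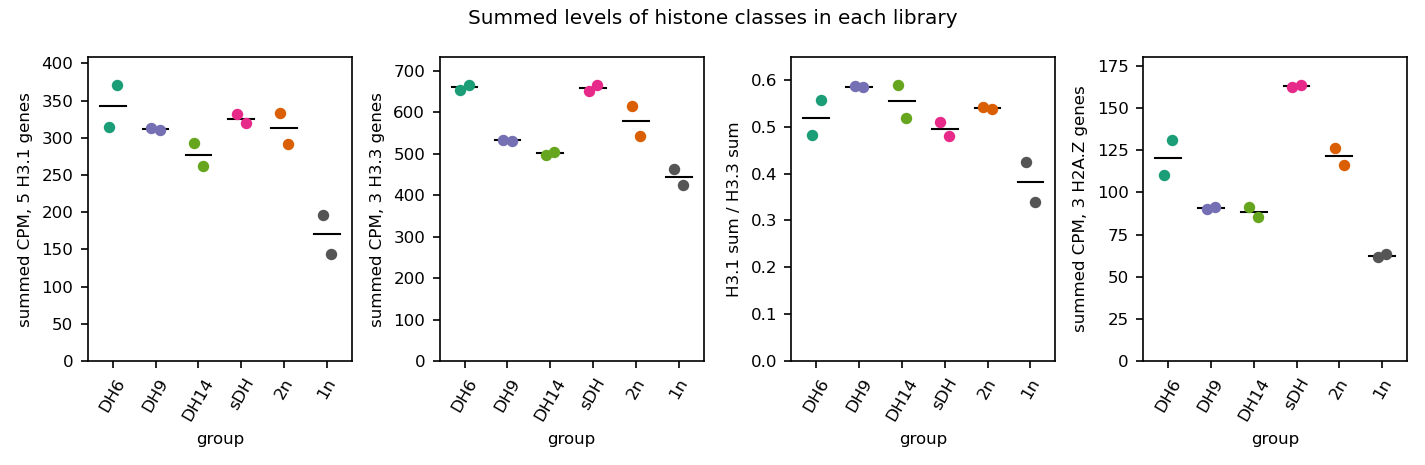
Summed CPM of the H3.1, H3.3 and H2A.Z genes and the ratio of the H3.1 to the H3.3 sum, per library (points) and group mean (bars), with 2 libraries per group. The ratio is 0.480 to 0.590 outside 1n and 0.339 and 0.425 in 1n, and the H2A.Z sum is highest in sDH.

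Not every replacement variant behaved as H3.3. All 3 H2A.Z genes rose in the mean of the other groups, with a median log2 change of 1.06, against 0.89 for H3.1. The order of the 2 medians turned in DH9, with 0.61 for H2A.Z and 0.87 for H3.1, and in DH14, with 0.71 and 0.75. HTA9, a main H2A.Z gene, had 64.9 and 70.9 CPM in DH6, 54.1 and 52.9 CPM in DH9, 54.5 and 55.3 CPM in DH14, 107 and 114 CPM in sDH, 72.0 and 68.3 CPM in 2n, and 41.7 and 42.9 CPM in 1n. The sDH libraries were the highest by a wide gap, and DH9 and DH14 lay between 2n and 1n. Against 2n, HTA9 rose in sDH (0.65 ± 0.08, adjusted p = 0.000179) and fell in DH9 (-0.39 ± 0.08, adjusted p = 0.00962) and DH14 (-0.35 ± 0.08, adjusted p = 0.0101). The call in sDH held without any single library (highest adjusted p = 0.00307), while that in DH9 was lost without DH9 1, DH9 2 or 2n 1, and that in DH14 without DH14 1 or 2n 1. HTA11 had 34.2 and 49.1 CPM in DH6, 29.4 and 29.9 CPM in DH9, 27.3 and 23.1 CPM in DH14, 40.8 and 39.2 CPM in sDH, 42.1 and 36.9 CPM in 2n, and 15.6 and 15.2 CPM in 1n. It had its highest value in DH6 III and was above 1n in all 10 other libraries (mean of the other groups 1.17 ± 0.13, adjusted p = 4.56e-05). HTA8, the third H2A.Z gene, had 6.36 to 14.7 CPM outside 1n, against 4.48 and 5.12 CPM in 1n. Summed H2A.Z reached 2.61 times the 1n mean in sDH, 1.94 times in 2n, 1.93 times in DH6, 1.45 times in DH9 and 1.42 times in DH14. The ratio of the H2A sum to the H2A.Z sum did not set 1n apart, at 1.71 in DH6, 1.55 in DH9, 1.46 in DH14, 1.38 in sDH, 1.57 in 2n and 1.54 ± 0.40 in 1n (SD, n = 2).

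Both H2A.X genes rose in the mean of the other groups. GAMMA-H2AX had 36.8 and 43.1 CPM in DH6, 20.9 and 25.0 CPM in DH9, 23.1 and 22.2 CPM in DH14, 37.0 and 33.4 CPM in sDH, 31.5 and 24.9 CPM in 2n, and 19.4 and 15.3 CPM in 1n. DH6 and sDH were the highest, and DH9 (0.40 ± 0.16, adjusted p = 0.0738) and DH14 (0.38 ± 0.16, adjusted p = 0.101) did not pass against 1n. H2AXA had 79.5 and 97.2 CPM in DH6, 71.3 and 66.1 CPM in DH9, 59.0 and 60.4 CPM in DH14, 78.3 and 68.8 CPM in sDH, 86.3 and 72.9 CPM in 2n, and 55.4 and 40.7 CPM in 1n. Its DH14 values exceeded 1n 1 by little, and that comparison did not pass either (0.31 ± 0.15, adjusted p = 0.159).

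Among the H2A.W genes, HTA7 and HTA6 rose and HTA12 did not. HTA7, whose product is known as a target of damage signalling in heterochromatin, had 51.7 and 52.7 CPM in DH6, 39.6 and 37.1 CPM in DH9, 35.3 and 30.6 CPM in DH14, 54.6 and 47.3 CPM in sDH, 53.7 and 45.3 CPM in 2n, and 22.1 and 17.1 CPM in 1n. It rose in every group against 1n (mean of the other groups 1.17 ± 0.12, adjusted p = 1.99e-05). HTA6 had 121 and 143 CPM in DH6, 82.9 and 85.4 CPM in DH9, 75.0 and 71.9 CPM in DH14, 108 and 105 CPM in sDH, 126 and 111 CPM in 2n, and 67.3 and 47.7 CPM in 1n. It rose in the mean of the other groups (0.81 ± 0.12, adjusted p = 0.000243) and did not pass in DH14 (0.35 ± 0.14, adjusted p = 0.0991). HTA12 had 5.03 and 3.89 CPM in DH6, 5.92 and 5.88 CPM in DH9, 4.99 and 5.38 CPM in DH14, 4.15 and 4.04 CPM in sDH, 3.74 and 2.57 CPM in 2n, and 4.42 and 6.38 CPM in 1n. It was lowest in 2n, and DH9 and DH14 lay within the spread of 1n. HTA12 fell in 2n against 1n (-0.77 ± 0.24, adjusted p = 0.0266; 19.9% of all tested genes fell there) and rose in DH9 against 2n (0.90 ± 0.24, adjusted p = 0.0261). The call against 1n was lost without 2n 2 or 1n 2 and in a fit of the 2n and 1n libraries alone (adjusted p = 0.122), and that against 2n was lost without DH9 1, DH9 2 or 2n 2.

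Linker H1 genes had the lowest median log2 change of all classes, at 0.38, and 2 of the 3 rose in the mean of the other groups. AT2G30620, which encodes a main H1, had 167 and 176 CPM in DH6, 119 and 126 CPM in DH9, 116 and 123 CPM in DH14, 183 and 179 CPM in sDH, 138 and 113 CPM in 2n, and 123 and 94.7 CPM in 1n. DH6 and sDH were high, and the other groups overlapped 1n. It rose in DH6 (0.66 ± 0.13, adjusted p = 0.00154) and sDH (0.73 ± 0.13, adjusted p = 0.000711) against 1n, and in both against 2n as well. The call in DH6 against 2n was lost without DH6 II, DH6 III or 2n 2, and that in sDH without sDH II or 2n 2. AT1G06760, the other main H1 gene, had 125 to 162 CPM outside 1n, against 118 and 77.6 CPM in 1n. HIS1-3, the H1 gene known to be induced by drought and low light, stood at 0.142 to 1.40 CPM and at as few as 3 counts. It had 0.225 and 0.142 CPM in DH6, 1.21 and 0.987 CPM in DH9, 0.735 and 1.12 CPM in DH14, 1.17 and 1.40 CPM in sDH, 0.345 and 0.589 CPM in 2n, and 0.424 and 1.33 CPM in 1n. Its DH6 libraries were the lowest, and the 1n libraries lay far apart. It fell in DH6 against 1n (-2.20 ± 0.65, adjusted p = 0.0171; 24.5% of all tested genes fell there), a call lost without DH6 II, DH6 III or 1n 2.

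**Figure D4:**
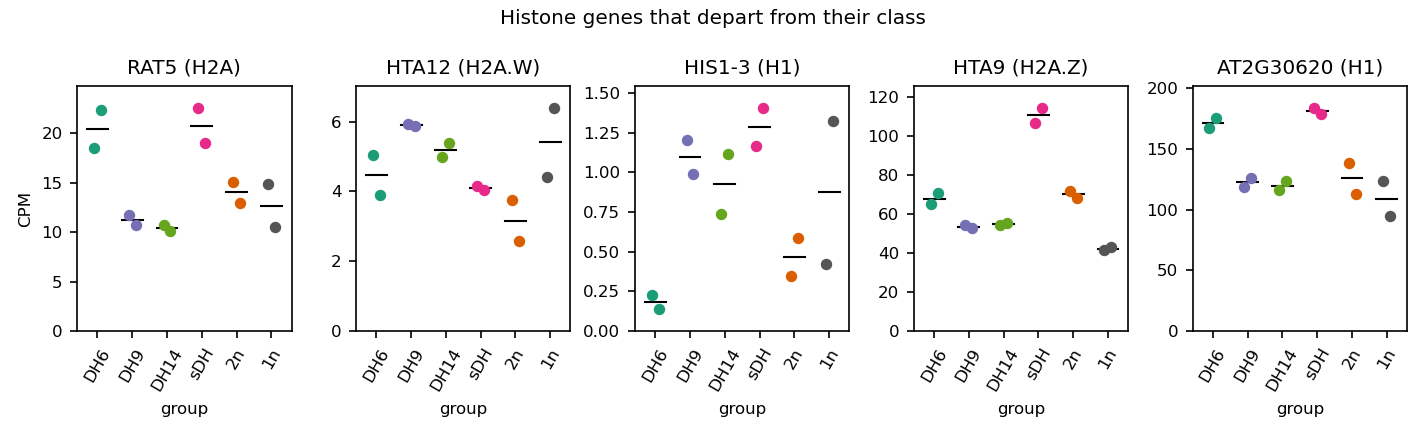
CPM of RAT5, HTA12, HIS1-3, HTA9 and AT2G30620 per library (points), with group means (bars), 2 libraries per group. RAT5 and AT2G30620 are high in DH6 and sDH, HTA9 in sDH, while HTA12 is lowest in 2n and HIS1-3 in DH6.

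Against 2n, fewer histone genes passed the test than against 1n, and the medians were above 0 in DH6 and sDH and below 0 in DH9 and DH14. In DH6, 11 of 39 rose (11.9% of all tested genes, with 25.1% changed in either direction) with a median log2 change of 0.16. In sDH 7 of 39 rose, a share near that of all tested genes (15.4%), with a median of 0.19. There 0 histone genes fell, where 15% of all tested genes fell and 30.4% changed. In DH14, 13 fell (13.6%, with 26.3% changed) with a median of -0.29, and in DH9, 7 fell (8.57%) and 1 rose (8.66%) with a median of -0.16. The medians over all tested genes were 0.05 in DH6, 0.04 in sDH, 0.01 in DH14 and 0.02 in DH9, and the 4 comparisons share the 2n libraries. The counts hung on single libraries. Over all tested genes the counts also fell in each of these comparisons, whichever library was left out. The histone count fell most without DH6 III or 2n 2 in DH6, and without sDH II or 2n 2 in sDH. It fell most without 2n 1 in DH14 and without DH9 1 or DH9 2 in DH9. In sDH the histone count was larger without 2n 1. Calls held without any single library for AT2G28720 in DH6, HTA9 in sDH, AT2G37470 in DH9, and AT2G37470 and HTA6 in DH14. AT2G37470 fell in DH9 (log2 change -0.69 ± 0.11, adjusted p = 0.00261) and in DH14 (-0.85 ± 0.11, adjusted p = 0.000421).

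The 3 doubled-haploid lines also differed from each other. By the F-test among DH6, DH9 and DH14, 24 of the 39 genes differed, where 25.3% of all tested genes did. H2A (4 of 4 genes), H2A.X (2 of 2) and H2A.W (2 of 3) were among them, as were 5 of 8 H4 and 5 of 8 H2B genes. H3.3, H2A.Z and H1 had 2 of 3 genes each. Of the H3.1 genes 0 of 5 differed, with 0 at an unadjusted p under 0.05 and 0 by DESeq2's likelihood ratio test. The H2B gene AT2G28720, picked after its values were seen, had 74.1 and 86.2 CPM in DH6, 49.6 and 55.7 CPM in DH9, 36.0 and 32.4 CPM in DH14, 59.3 and 59.3 CPM in sDH, 57.5 and 44.0 CPM in 2n, and 35.3 and 37.1 CPM in 1n. DH6 was high, DH9 in between and DH14 no higher than 1n, and its adjusted p among the lines was the smallest of the 39 (0.000479). The count of 24 was smaller when a library of these lines was left out, and smallest without DH6 III. The count over all tested genes behaved in the same way. Over all 6 groups, 38 of 39 genes differed, where 62% of all tested genes did; HTA12 did not (adjusted p = 0.0565).

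Genes of DNA replication and mitosis moved in the same direction as the histones. Of 14 replication genes, 13 rose in the mean of the other groups against 1n, with a median log2 change of 0.84. In that comparison 22.2% of all tested genes rose and 24.7% fell. MCM6, a subunit of the replicative helicase, rose by 1.02 ± 0.08, adjusted p = 2.75e-06. RNR1 and TSO2, subunits of ribonucleotide reductase, rose as well (RNR1 1.21 ± 0.08, adjusted p = 1.82e-06; TSO2 0.87 ± 0.11, adjusted p = 0.000107). CDC6, a licensing factor, did not pass (-0.02 ± 0.26, adjusted p = 0.958). All 10 mitotic genes rose, with a median of 1.73, and their summed level was 161 and 199 CPM in DH6, 140 and 138 CPM in DH9, 125 and 123 CPM in DH14, 171 and 157 CPM in sDH, 165 and 149 CPM in 2n, and 41.8 and 41.7 CPM in 1n. The mitotic cyclin CYC1BAT rose by 2.16 ± 0.13, adjusted p = 8.45e-07 and SYP111, a syntaxin of cell plate formation, by 2.06 ± 0.13, adjusted p = 1.23e-06. The 1n libraries were nearly equal in this sum alone, and single mitotic genes differed between them in both directions. In 1n 1 and 1n 2, CYCB1;3 had 1.94 and 1.26 CPM and AUR2 had 2.06 and 3.35 CPM. The leaf markers RBCS1A, RCA and LHCB2.1 fell in the mean of the other groups, but in single groups all 3 fell in DH6 and 2n, 2 in DH9 and sDH and 1 in DH14. LHCB2.1 was at 3792 and 3888 CPM in DH14, 3458 and 3483 CPM in sDH and 916 and 718 CPM in 2n, against 3463 and 3228 CPM in 1n. The sum of the 3 markers was 37306 and 36619 CPM in DH6, 37975 and 39375 CPM in DH9, 43066 and 42855 CPM in DH14, 32266 and 35708 CPM in sDH, 30349 and 30229 CPM in 2n, and 47952 and 44172 CPM in 1n. The part of either list in the histone result was not tested.

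Of 5 regulators of S-phase entry, 1 rose and 1 fell in the mean of the other groups, shares near those of all tested genes (22.2% rose and 24.7% fell). E2F3, which encodes an activating E2F factor, rose (0.44 ± 0.14, adjusted p = 0.0242) and DPA, a partner of E2F factors, fell (-0.52 ± 0.12, adjusted p = 0.00573). By edgeR's F-test among the 6 groups, E2F3 did not pass (adjusted p = 0.129) and DPA did (adjusted p = 0.0294). In single groups against 1n, 1 of the 5 rose in DH6 and in DH14, and 0 in DH9, sDH and 2n. There 1 fell in DH14, in sDH and in 2n, and 0 in DH6 and DH9. E2F1, ATE2F2 and RBR1 did not pass, with log2 changes of 0.08 to 0.16.

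Of 28 genes of histone chaperones, remodellers and variant exchange, 17 rose and 11 did not pass in the mean of the other groups. Their median log2 change was 0.32, and 22.2% of all tested genes rose in that comparison. CHR1, the remodeller DDM1 needed for DNA methylation of heterochromatin and for H2A.W, had 16.1 and 18.3 CPM in DH6, 13.5 and 14.2 CPM in DH9, 15.2 and 16.3 CPM in DH14, 17.2 and 17.1 CPM in sDH, 12.2 and 14.8 CPM in 2n, and 8.85 and 8.34 CPM in 1n. Its change was the largest of the list (0.84 ± 0.10, adjusted p = 7.64e-05). ATXR6, which methylates H3.1, rose by 0.79 ± 0.24, adjusted p = 0.0174, and ATXR5, which has the same activity, did not pass (-0.20 ± 0.19, adjusted p = 0.404). The CAF-1 subunits FAS1 (0.36 ± 0.12, adjusted p = 0.0329) and FAS2 (0.39 ± 0.13, adjusted p = 0.0311) rose, as did MSI1 (0.54 ± 0.10, adjusted p = 0.00122). By edgeR's F-test among the 6 groups, FAS1 (adjusted p = 0.192) and FAS2 (adjusted p = 0.198) did not pass, and MSI1 did (adjusted p = 0.00603). HIRA, of the H3.3 pathway, did not pass in the mean of the other groups (0.21 ± 0.12, adjusted p = 0.199) and rose in sDH against 2n (0.59 ± 0.15, adjusted p = 0.0137). ASF1B, a chaperone of H3 and H4, rose by 0.43 ± 0.11, adjusted p = 0.0064, with 9.03 and 7.76 CPM in DH14, against 8.85 and 8.53 CPM in 1n. The H2A-H2B chaperones NAP1;1 (0.38 ± 0.06, adjusted p = 0.000285) and NRP2 (0.54 ± 0.09, adjusted p = 0.00061) rose too. PIE1, the motor of the SWR1 complex that inserts H2A.Z, did not pass (0.20 ± 0.11, adjusted p = 0.155). It did not pass in sDH against 2n either (0.25 ± 0.14, adjusted p = 0.216). In that comparison, where HTA9 rose, 8 of the 28 genes rose and 0 fell (15.4% and 15% of all tested genes). SEF had 8.44 and 6.96 CPM in sDH against 4.78 and 4.98 CPM in 2n, and SWC2 17.2 and 17.1 against 12.9 and 12.7 CPM. AT2G47210 went the other way, with 39.2 and 38.7 against 48.1 and 48.8 CPM. A link of these genes to HTA9 was not tested.

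**Figure D5:**
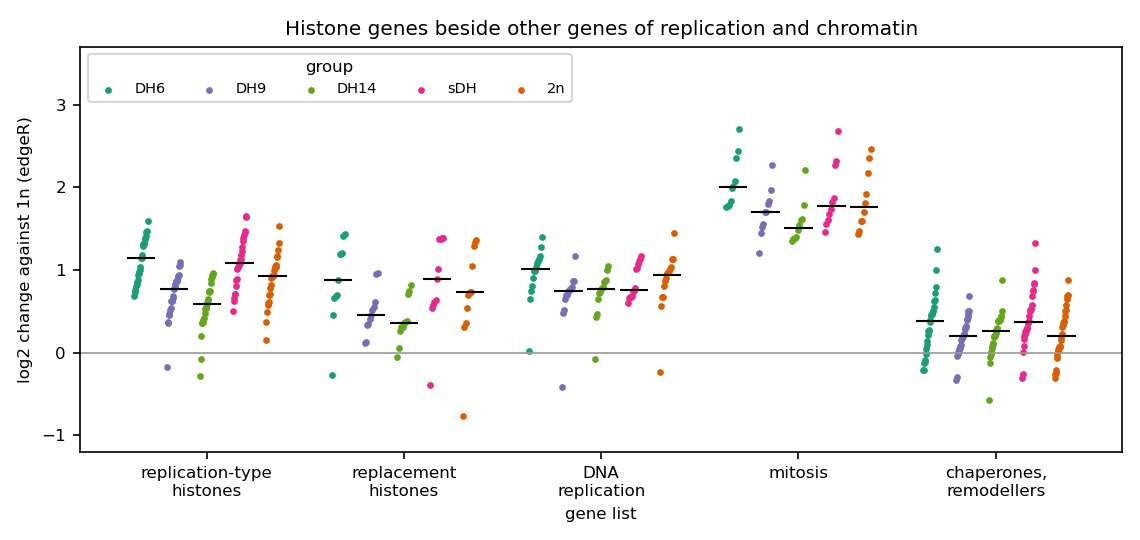
Log2 change against 1n of replication-type and replacement histone genes, DNA replication genes, mitotic genes, and histone chaperones and remodellers in DH6, DH9, DH14, sDH and 2n; each point is a gene and bars are medians. Mitotic medians lie between 1.51 and 2.01, replication-type histone medians between 0.58 and 1.14 and chaperone medians between 0.20 and 0.38.

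Of 10 other genes of the histone families, outside the 39, 5 passed the filter on low counts. The centromeric H3 gene HTR12 did not pass the test (0.26 ± 0.25, adjusted p = 0.407), with 4.49 and 9.25 CPM in DH6 and 3.64 and 5.49 CPM in 1n. The pollen H3 gene MGH3 was at 0 counts in all 12 libraries. HTA4, of the H2A family, fell in the mean of the other groups (-0.67 ± 0.21, adjusted p = 0.0247), and AT3G09480, of the H2B family, rose (1.41 ± 0.35, adjusted p = 0.0069).

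The level of H3.1 across the 12 libraries was compared with that of every tested gene outside the 39. With the mean log2 level of the H3.1 genes, Pearson's r was 0.989 for EHD2, 0.986 for EMB3127, 0.981 for PRMT1A and 0.980 for LIG1, the highest 4 values. The other 6 of the 10 closest genes were AT4G15640, AT5G26360, TK1b, AT3G12870, AT4G15830 and LACS1, with r down to 0.973. Within the list, the median r with that mean was 0.95 for H4, 0.88 for H2A, 0.87 for H2B, 0.86 for H2A.X and H2A.W, 0.85 for H3.3, 0.82 for H2A.Z and 0.71 for H1, and it was lowest for HTA12 (r = -0.41). These values describe 12 libraries that share 6 group means and their scaling, and carry no test.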

How the data were processed

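RNA sequencing counts of 12 libraries were used; the 12 DNA methylation samples were not analysed here. The submitters' processing notes name TAIR10, HISAT2, Subread and DESeq2 without versions; the annotation, the strand setting and the rule for shared reads are not stated there. The authors deposited whole-number counts per gene, not normalized, in tables that repeat the 1n columns. Columns named WT stand in a table headed Col against 1n and were taken as 2n, the RNA group with no other column, and DH6 and sDH columns carry the numerals II and III. The sDH table names 1n 1 in both 1n columns, and the repeat (1 column) was not read. Symbols came from RefSeq (TAIR10.1): all 39 loci matched and 19 have a symbol.

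In R 4.3.3, edgeR 4.0.16 (filterByExpr with a minimum count of 10 and total of 15, TMM scaling, 1 quasi-likelihood fit with a mean per group, Benjamini-Hochberg adjustment over 19201 genes) gave all tests, against 1n and 2n and as F-tests. In data simulated for the mean of the other groups against 1n (18962 genes in the fit), 46% of genes changed 1.5-fold and 90% of genes changed 2-fold were recovered. For 2n against 1n these were 24% and 81%, and false calls numbered 12 and 6 in the 2 comparisons. The simulation drew genes separately and gave all groups the same spread. In the data the pairs differed in spread and histone genes moved together in some, so these rates may not hold there. Alternatives were RLE scaling, no filter, the groups compared alone, each library left out, DESeq2 1.42.0 and a replicate block. They were read for the histone genes and as counts over all tested genes, not for single genes of the related lists. For each class, values are given for the genes with the smallest p among the 6 groups, the gene of highest level and genes called against their class, and for each related list for a few genes of smallest p with named chaperones; other genes named were picked after their values were seen. The listed genes and lists were chosen with earlier results of these data known.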

Additional observations from a re-analysis of the deposited data

Results flagged for a closer look

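Of the 39 histone genes, 24 differed among DH6, DH9 and DH14 by edgeR's F-test, that is, in how far they stood from 1n; 25.3% of all tested genes did. The smallest adjusted p-values from edgeR's quasi-likelihood F-test belonged to AT2G28720 (0.000479), AT1G07820 (0.000994), RAT5 (0.00300), GAMMA-H2AX (0.00312) and HTA6 (0.00343). AT2G28720, an H2B gene, averaged 80.1 ± 8.55 CPM in DH6, 52.7 ± 4.28 in DH9 and 34.2 ± 2.51 in DH14, against 36.2 ± 1.33 in 1n (SD, n = 2 each). AT1G07820, an H4 gene, averaged 87.4 ± 9.38 CPM in DH6, 54.9 ± 0.106 in DH9 and 45.5 ± 0.533 in DH14, against 35.6 ± 4.42 in 1n (SD, n = 2 each).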

How the results depend on the processing

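With 2 libraries per group, counts against 2n and the counts in DH9 and DH14 against 1n depended on single libraries and on how the spread was shared; leaving out a library leaves its group with 1, assumed to vary like the other groups. Called genes ranged from 17 to 33 in DH9 and from 11 to 31 in DH14 against 1n. Against 2n they ranged from 1 to 11 in DH6, 1 to 4 in DH9, 3 to 13 in DH14 and 1 to 11 in sDH, and among the 3 lines from 6 to 18. Leaving out a library, the counts were 34 to 37 in the mean of the other groups, 35 to 38 in DH6, 36 to 37 in sDH and 29 to 37 in 2n against 1n. A fit of the compared groups alone gave 26 in 2n, 18 in DH9 and 10 in DH14 against 1n. DESeq2 gave 36 genes in the mean of the other groups, 30 in DH9 and 24 in DH14. No gene reversed under these settings. Over all tested genes, the counts against 1n and 2n and among the 3 lines also fell whichever library was left out.

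The columns of 1n, DH9 and DH14 carry the replicate numbers of the labels; 2n columns are numbered 1 and 2, and DH6 and sDH columns II and III. Over the 7 pairs of groups with the same numerals, the deviations of same-numbered libraries had r of -0.17 to 0.12 over all tested genes (2n and 1n 0.12, DH6 and sDH 0.01). The libraries were therefore taken to share only a number. Over the histone genes alone r spread wider, from -0.43 (DH9 and DH14) to 0.36 (2n and 1n, and DH14 and 1n). For these genes a link by numeral is thus not settled. With a replicate block in a fit of 1n, DH9 and DH14, 23 genes passed in DH9 and 15 in DH14 against 1n; without it, in a fit chosen after seeing the data, 27 and 17 did. With a replicate block by numeral on these and 2n, also chosen after seeing the data, 33 passed in 2n against 1n, 5 in DH9 and 14 in DH14 against 2n; without it, 34, 5 and 13 did. DH6 and sDH share 1 numeral at most with 1n or 2n, and no such block was fitted for them. With RLE scaling, summed CPM of replacement genes was 840 in DH9 (TMM 843) and 1085 in sDH (TMM 1092), shifts beyond the narrow spread of those pairs. Depth limits HIS1-3, whose lowest library had 3 counts.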
